A study of Mus musculus with 6 samples.

Results

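The protein-coding genes of the cytosolic ribosome were followed in embryoid bodies exposed to intermittent compressive force (ICF). Members were taken by symbol, as protein-coding mouse genes named Rpl or Rps with a number and any trailing letters, together with Rpsa and the stalk genes Rplp0, Rplp1 and Rplp2. This gave 82 of the 50686 genes in the count files, 50 of the large subunit and 32 of the small subunit. Of these, 76 were the canonical gene of their protein and 6 were paralogs, namely Rpl10l, Rpl39l, Rpl3l and Rpl36al of the large subunit and Rps27l and Rps27rt of the small subunit. A further 4 matching symbols (Rpl32l, Rpl37rt, Rpl6l and Rps4l) are annotated as pseudogenes and were left out. The symbols of Rps3a1 and Fau, among others, escape the rule although they encode ribosomal proteins, and their values are given beside the members.

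Each cytosolic ribosome joins a large subunit, which forms peptide bonds, to a small subunit, which reads the mRNA, and nearly all canonical ribosomal proteins are needed in equal number. Most of their mRNAs begin with a C followed by further pyrimidines, the terminal oligopyrimidine (TOP) tract, through which mTORC1 and LARP1 control their translation and stability. Pluripotent stem cells grow and divide fast and carry abundant ribosomal protein mRNA. Several paralogs stand in for their canonical gene in particular cells, such as Rpl10l and Rpl39l in male germ cells and Rpl3l in striated muscle.

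RNA sequencing covered 3 ICF-treated and 3 unloaded control samples of mouse induced pluripotent stem cells (iPSCs) derived from gingival fibroblasts. In both groups the iPSCs were aggregated into embryoid bodies, exposed to retinoic acid, plated on gelatin and kept for 24 h in serum-free medium, and only the ICF group was loaded, with 1.5 g/cm2 at 0.23 Hz. The labels number the samples as donors 1 to 3 in each group, called replicates 1 to 3 here, and give no strain, sex or age. The iPSCs had been grown on SNL feeder cells, which were removed by selective trypsinization before aggregation. The comparison asks which of these mRNAs differed between loaded and unloaded embryoid bodies.

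The libraries held 28711166 to 34194413 reads assigned to genes. The pluripotency gene Pou5f1 was present at 741 to 883 CPM (TMM-normalized counts relative to library size) in the 6 samples, whereas the fibroblast collagen gene Col1a1 stood at 11.6 to 28.0 CPM and the retinoic acid target Hoxb1 at no more than 0.376 CPM. 1 library stood apart: of the nonzero counts of ICF replicate 3, 89.0% were divisible by 4, where the remaining 5 libraries had 20.3% to 21.5%, and 20802 genes had a count, against 24340 to 24889. Reads that aligned to more than 1 place were not counted, and their alignments made up 29.5% to 31.3% of all records in the files. This matters here because ribosomal protein genes have many processed pseudogenes. Of the 75-base stretches of a canonical transcript, a median of 42.4% also occurred in transcripts of genes elsewhere, with a range of 0.00% to 98.5%.

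The canonical ribosomal protein mRNAs were lower after ICF almost as a body, by small amounts, and the paralogs Rps27l and Rpl10l rose. Fitted log2 fold changes of ICF over control were negative for all 76 canonical genes and had quartiles of -0.28 and -0.15, and they remained negative for 73 of the 76 under every other scaling and filter, with Rpl19 and Rps9 among the exceptions when GC content and length were fitted. Their median was -0.23, against 0.00 over the 16729 genes tested, of which 8292 had a negative value. All 82 members passed the filter on low counts. With edgeR's quasi-likelihood test and a Benjamini-Hochberg adjusted p under 0.05, 6 members fell, where 4.38% of all genes tested fell, and 2 members rose, where 3.47% of all genes rose. In bulk samples, fewer cells of a type and less RNA per cell cannot be told apart.

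**Figure D1:**
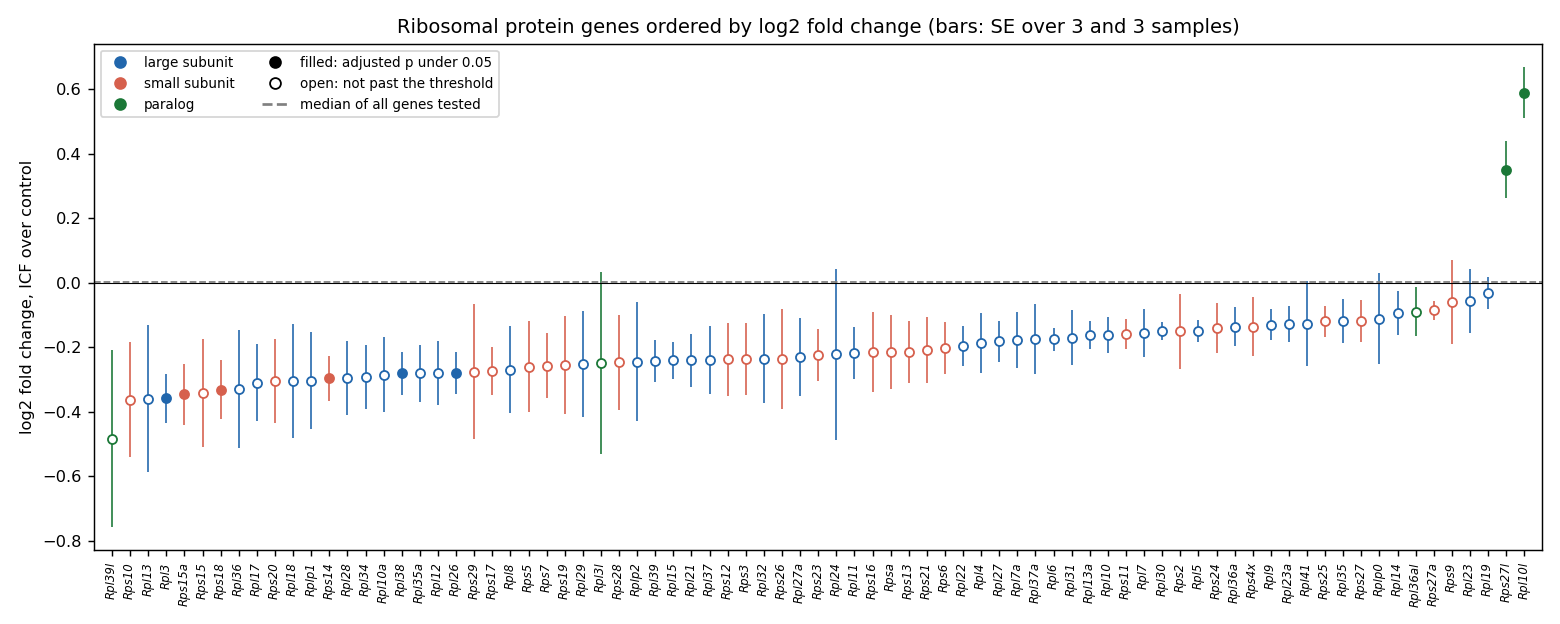
Fitted log2 fold change (vertical axis, ICF over control) of 79 of the 82 ribosomal protein genes, ordered from lowest to highest, with standard errors over 3 and 3 samples. Rps27rt, at 0 in 1 sample, is among the genes not drawn. Every canonical gene drawn lies below 0 in this fit (73 of 76 under every scaling and filter), 6 filled points fell and the 2 filled points at the right, Rps27l and Rpl10l, rose.

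More of these differences passed when the replicates were paired, or when replicate 3 of both groups was left out. Neither the labels nor the paper states that same-numbered samples were paired. With the replicate number as a block, 65 members fell, against 15.3% of all genes tested, and 2 rose, against 14.6%. Those 65 were 39 of the 46 canonical large subunit genes, 25 of the 30 canonical small subunit genes and Rpl39l. Without replicate 3 of both groups, 68 members fell, where 15.6% of all genes fell, and 2 rose, where 14.6% rose. Adding the block to that fit gave 63 falls (2359 of 16893 genes tested fell). Single libraries also moved the count. Without control replicate 3, 33 members fell (5.45% of all genes tested), and without ICF replicate 3, 3 fell (4.52%). No member fell in edgeR's test without control replicate 1 (1.46% of all genes), control replicate 2 (1.26%), ICF replicate 1 (1.7%) or ICF replicate 2 (2.05%), where 17, 21, 24 and 51 members were lower at an unadjusted p under 0.05, against 9.02%, 9.09%, 10.3% and 11.5% of all genes. In these 6 fits the median of the members stayed between -0.29 and -0.16.

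The share of counted reads that fell on the 82 members was 5.66%, 5.33% and 4.82% in control replicates 1 to 3 and 4.70%, 4.91% and 4.32% in ICF replicates 1 to 3. Each ICF sample was below the control sample of its own number, but the groups overlapped, since control replicate 3 lay below ICF replicate 2. The mean share was 5.27% ± 0.425 (SD, n = 3) for control samples against 4.64% ± 0.30 (SD, n = 3) after ICF. The same pattern held for the 18 members with under 20% of stretches shared with other genes, which took 1.41% ± 0.132 of the reads in the control and 1.23% ± 0.077 with ICF. The share on mitochondrially encoded genes moved the other way, with 1.92% to 2.24% in the control and 2.18% to 2.60% with ICF, and its part in the result was not tested.

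**Figure D2:**
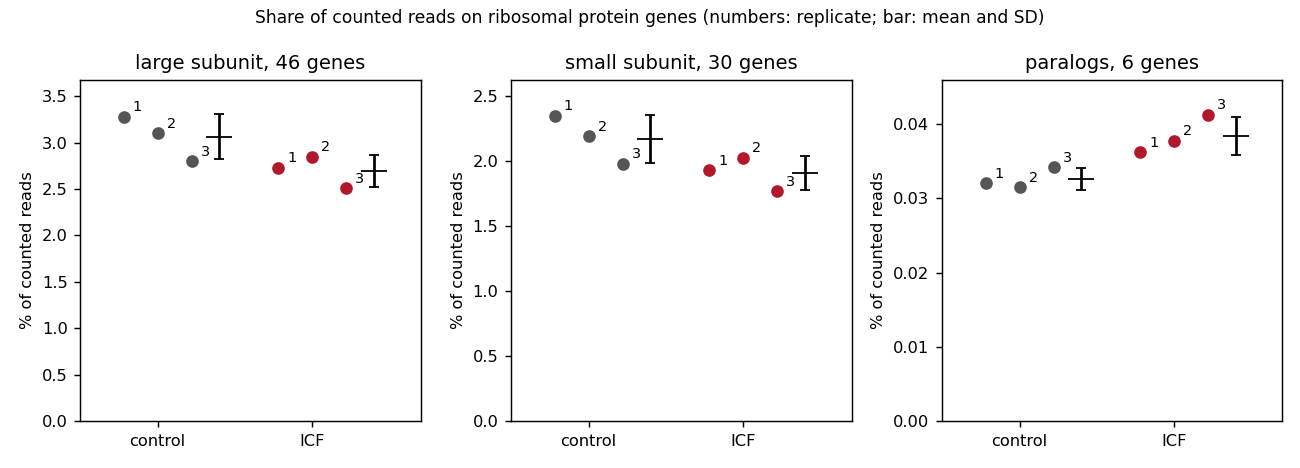
Share of counted reads (vertical axis, % of reads counted on genes) on the canonical large subunit genes, the canonical small subunit genes and the paralogs in each sample, with mean and SD at the side. Replicate 3 is the lowest of its group for both subunits. For the paralogs, summed over 6 genes, all 3 ICF samples exceed all 3 control samples. Rps27l has the highest count of the 6 in every sample, and 4 of the 6 had a negative log2 fold change.

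Replicate 3 stood low in both groups. Relative to the mean of replicates 1 and 2 of its own group, the median log2 CPM difference of the canonical genes was -0.21 in control replicate 3, with 74 of 76 genes lower, and -0.15 in ICF replicate 3, with 68 of 76 lower. Of all 16729 genes tested, 8425 were lower in control replicate 3 and 8475 in ICF replicate 3. The shift of the canonical genes in control replicate 3 was nearly as large as their median difference between the groups. Within pairs of the same number, the median log2 difference between ICF and control over the canonical genes was -0.34 in pair 1, -0.16 in pair 2 and -0.18 in pair 3, and 75, 73 and 74 of the 76 genes were lower. Over all 16729 genes tested, 8272, 8309 and 8458 were lower in pairs 1 to 3. All 3 pairs were lower for 71 of the 76 canonical genes, against 4733 of the 16729 genes tested. Every ICF sample lay below every control sample for 28 members, all canonical, where this held for 15.7% of all genes tested. Every ICF sample lay above every control sample for 2 members, where this held for 15.6% of all genes.

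**Figure D3:**
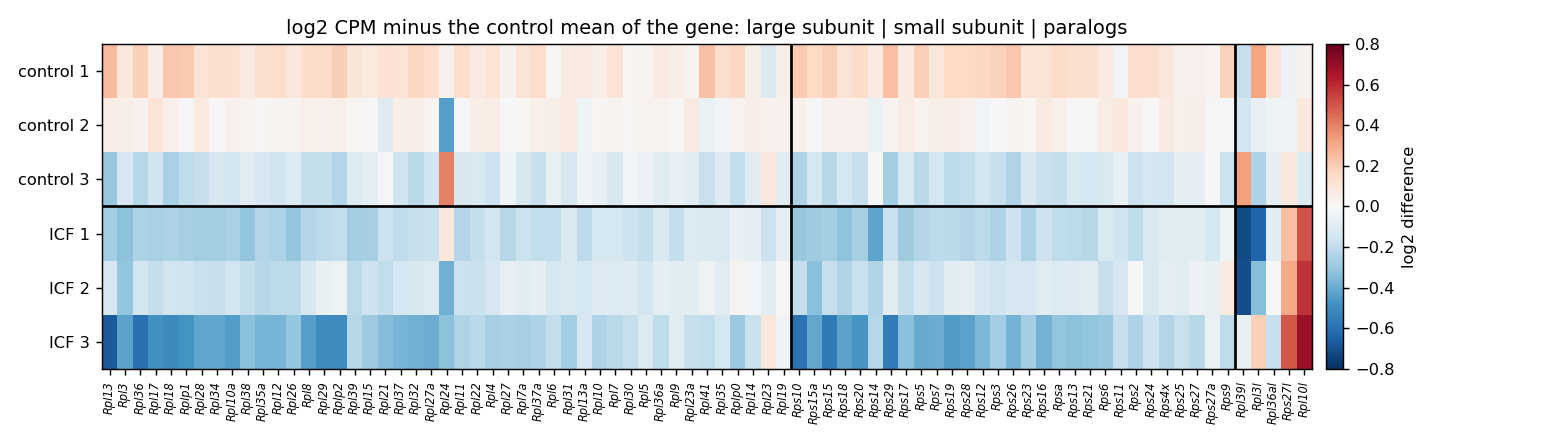
Colour gives log2 CPM minus the gene's control mean for 79 members (columns, in the order large subunit, small subunit, paralogs) in the 6 samples (rows). For most canonical genes the ICF rows are blue and deepest in ICF replicate 3, and control replicate 3 is paler blue. Exceptions include Rpl23, above its control mean in ICF replicate 3, and Rps14, deepest in ICF replicate 1. Rps27l and Rpl10l are red in all 3 ICF rows.

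The median log2 fold change was -0.23 for the 46 canonical large subunit genes and -0.23 for the 30 canonical small subunit genes, with 3 calls of a fall in each. The ratio of summed large subunit to summed small subunit counts, on the log2 scale, was 0.48, 0.50 and 0.50 for control replicates 1 to 3 and 0.50, 0.49 and 0.50 for ICF replicates 1 to 3. Its mean was 0.494 ± 0.011 (SD, n = 3) for the former and 0.497 ± 0.0068 (SD, n = 3) for the latter, a difference of 0.0033 that was smaller than either SD. Over the 6 large and 8 small subunit genes with few shared stretches, control samples had a ratio of -0.21 ± 0.028 (SD, n = 3) and ICF samples one of -0.18 ± 0.0081 (SD, n = 3), a difference of 0.028 that was about the size of the control SD.

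The 6 canonical genes that fell were Rpl3, Rpl26 and Rpl38 of the large subunit and Rps14, Rps15a and Rps18 of the small subunit. Rpl3, which lies near the peptidyl transferase centre, had 1451, 1416 and 1249 CPM in the control and 1089, 1104 and 1017 CPM with ICF. All 3 ICF samples were below all 3 control samples, and its log2 fold change was -0.36 ± 0.08 (SE, adjusted p = 0.021). Rps18, a protein of the small subunit head, had 910, 863 and 766 CPM in the control and 674, 716 and 627 CPM with ICF. The groups did not overlap, with a log2 fold change of -0.33 ± 0.09 (SE, adjusted p = 0.0405).

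Rps15a, also of the small subunit, had 695, 615 and 563 CPM in the control and 512, 494 and 467 CPM with ICF, a log2 fold change of -0.35 ± 0.10 (SE, adjusted p = 0.0391). Rps14, which sits at the small subunit platform, had 1125, 1040 and 1068 CPM in the control and 803, 911 and 919 CPM with ICF, a log2 fold change of -0.30 ± 0.07 (SE, adjusted p = 0.0375). For both genes every ICF sample was below every control sample, and Rps14 did not pass with GC content and length offsets (-0.22, adjusted p = 0.0775). Rpl38, known for its part in the translation of Hox mRNAs, had 274, 266 and 245 CPM in the control and 210, 229 and 207 CPM with ICF, a log2 fold change of -0.28 ± 0.07 (SE, adjusted p = 0.041). Rpl26, which binds p53 mRNA, had 579, 555 and 506 CPM in the control and 441, 471 and 439 CPM with ICF, a log2 fold change of -0.28 ± 0.07 (SE, adjusted p = 0.0407).

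Genes with large fitted differences did not all pass. Rps10 had 521, 464 and 381 CPM in the control and 367, 396 and 300 CPM with ICF, so that ICF replicate 2 exceeded control replicate 3, and its log2 fold change of -0.36 ± 0.18 had an adjusted p of 0.12. Rpl13, at -0.36 ± 0.23 (adjusted p = 0.201), also overlapped between the groups. With the replicate block the adjusted p of these genes was 1.55e-06 and 2.66e-06. At the other end, Rpl19 (-0.03), Rpl23 (-0.06) and Rps9 (-0.06) had differences near 0, and none passed with or without the block. When GC content and transcript length entered the fit as offsets, Rpl19 and Rps9 had small positive values instead.

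The members fixed for their roles lay within the range of the rest. Rpl5 and Rpl11, which form the 5S RNP with 5S rRNA and can bind Mdm2, had log2 fold changes of -0.15 ± 0.03 (adjusted p = 0.135) and -0.22 ± 0.08 (adjusted p = 0.107), and for both every ICF sample was below every control sample. Rps6, the S6 kinase substrate, had 513, 512 and 451 CPM in the control and 452, 432 and 399 CPM with ICF (-0.20 ± 0.08, adjusted p = 0.127). Of the stalk genes, whose proteins recruit elongation factors, Rplp0 had -0.11 ± 0.14, Rplp1 -0.30 ± 0.15 and Rplp2 -0.24 ± 0.18, with adjusted p of 0.562, 0.133 and 0.293. Rpsa, which also encodes the laminin receptor, had -0.21 ± 0.12 (adjusted p = 0.187). With the replicate block Rpl5, Rpl11, Rps6, Rplp1, Rplp2 and Rpsa fell (adjusted p from 2.50e-05 to 0.0169), and Rplp0 did not (adjusted p = 0.0844).

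Levels per length, as CPM per kilobase of transcript in the control, placed Rplp1 (3102), Rpl8 (2149) and Rps14 (1806) highest among the canonical genes and Rpl24 (1.32), Rpl21 (95.7) and Rps15a (120.5) lowest. Rpl24 had 20 to 33 counts per sample, and 71.5% of its transcript overlaps exons of Gm28037 on the same strand, where HTSeq sets reads aside as ambiguous. The annotated transcripts of Rps15a and Rpl21 are 5179 and 1856 bases long, where the median of the canonical genes is 795. Their levels per length are thus uncertain. The size of the difference did not track these properties closely. Over the 75 canonical genes that averaged 100 counts or more, the log2 fold change had a Pearson r of 0.03 with log2 level, 0.05 with the share of stretches found elsewhere and -0.23 with GC content, as a description over genes that share the same 6 libraries. The 14 canonical genes with under 20% of shared stretches had a median log2 fold change of -0.24, the 39 with 20% to 60% had -0.24 and the 23 with more had -0.21.

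The start sites of members are shown because most of these mRNAs are known to carry the TOP tract. Each window, from RefSeq (GRCm38.p6), covers 30 bases before the start site and 20 from it on, in the direction of the gene, and capitals mark the longest run of C and T within 20 bases of the start. The first 4 are genes that fell, and of these genes Rpl3 and Rps14 are not shown. The last 4 are the paralogs that rose, each after its canonical gene.
Rps18 (chr17:33955646-33955695, minus strand): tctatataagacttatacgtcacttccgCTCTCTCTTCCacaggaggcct
Rps15a (chr7:118116128-118116177, minus strand): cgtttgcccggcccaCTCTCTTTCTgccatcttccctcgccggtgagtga
Rpl38 (chr11:114668550-114668599, plus strand): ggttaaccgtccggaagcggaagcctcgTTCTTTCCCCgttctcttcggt
Rpl26 (chr11:68901536-68901585, plus strand): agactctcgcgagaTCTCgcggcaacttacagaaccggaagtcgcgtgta
Rps27 (chr3:90213629-90213678, minus strand): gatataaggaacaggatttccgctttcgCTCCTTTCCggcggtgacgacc
Rps27l (chr9:66946056-66946105, plus strand): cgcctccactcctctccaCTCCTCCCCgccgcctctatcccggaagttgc
Rpl10 (chrX:74270786-74270835, plus strand): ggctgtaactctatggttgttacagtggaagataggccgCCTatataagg
Rpl10l (chr12:66284382-66284431, minus strand): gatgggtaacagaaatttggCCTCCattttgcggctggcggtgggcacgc

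In Rps18, Rpl38 and Rps27 the run crosses the start site, which is a C, and Rps15a also starts with a C inside a run of pyrimidines that is shorter than the run before it, whereas in Rps27l and Rpl10l the annotated start is a G and the run ends before it. Rpl26, which fell, has an A at its annotated start and the canonical Rpl10 a G, and neither has a pyrimidine run there. Of the 76 canonical genes, 56 had an entry. A C at the start followed without a break by C or T to a run of at least 5 bases, read on the gene's strand only, was found in 12 of them (21.4%), against 2.49% of the 27025 genes in the table. A run of at least 8 pyrimidines within 20 bases of the start was found in 26 (46.4%), against 15.9% of all. The 12 canonical genes with the run at the start had a median log2 fold change of -0.24 and the 44 without it -0.21. Annotated starts can differ from those used in these cells, and a match or its absence is a description of the letters only.

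The paralogs differed from one another. Rps27l (chr9:66946086-66949516, GRCm38), a paralog of Rps27 known as a p53 target, had 196, 198 and 215 CPM in the control and 240, 251 and 286 CPM with ICF. Every ICF sample exceeded every control sample, the log2 fold change was 0.35 ± 0.09 (SE, adjusted p = 0.0313), and the level was 27.5% higher. It passed in 2 of the 6 fits with 1 sample left out, with a largest adjusted p of 0.146, and passed with the replicate block (adjusted p = 1.31e-06). Only 12% of its stretches occur elsewhere, against 98.5% for Rps27, which had 497, 502 and 461 CPM in the control and 456, 470 and 417 CPM with ICF.

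Rpl10l (chr12:66283379-66284401, GRCm38), an intronless copy of Rpl10 that replaces it in male meiosis when the X chromosome is silent, had 17.2, 17.8 and 15.6 CPM in the control and 23.9, 25.1 and 27.2 CPM with ICF. It was the member with the largest rise, at a log2 fold change of 0.59 ± 0.08 (SE, adjusted p = 0.00691), and it passed in all 6 fits with 1 sample left out. The X-linked Rpl10 had 491, 481 and 453 CPM in the control and 431, 442 and 401 CPM with ICF (-0.16 ± 0.05, adjusted p = 0.146) and fell with the replicate block (adjusted p = 0.00963). Of 10 male germ cell markers listed, 5 could be tested. Stra8, also listed for the retinoic acid response, was the 1 of the 5 that fell, where 4.38% of all genes fell. Under the block 3 of the 5 fell, Stra8, Dazl and Sycp1 (adjusted p = 2.52e-05, 0.0248 and 0.0097), where 15.3% of all genes fell. The summed level of all 10 was 61.0 to 79.7 CPM in the control and 56.7 to 73.1 CPM with ICF, and Prm1, Prm2 and Acrv1 were at 0 in every sample.

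Rpl39l, the germ cell counterpart of the X-linked Rpl39, had 22.6, 23.1 and 32.1 CPM in the control and 15.6, 15.6 and 24.6 CPM with ICF. Replicate 3 was high in both groups, so the groups overlapped, and the log2 fold change of -0.48 ± 0.27 had an adjusted p of 0.172. With the replicate block it fell (adjusted p = 6.09e-06), as did the germ cell genes Stra8, Dazl and Sycp1. Ddx4 and Sycp3 did not (adjusted p = 0.186 and 0.392), and Ddx4 had a positive log2 fold change without the block (0.13). Dazl and Sycp1 were also highest in replicate 3 of each group, at 24.0 and 8.66 CPM in control replicate 3 and 19.5 and 6.77 CPM in ICF replicate 3. The same held for Stra8 and Sycp3, whereas Ddx4 was not highest in control replicate 3 (25.6, 27.9 and 26.1 CPM in the control). The part of these genes in the level of Rpl39l was not tested. Rpl36al had 87.9, 79.4 and 77.7 CPM in the control and 76.7, 81.7 and 71.8 CPM with ICF (-0.09 ± 0.08, adjusted p = 0.499), and 63.1% of its transcript overlaps Gm49383. Rpl3l, at 1.32 to 1.95 CPM in the control and 1.01 to 1.80 CPM with ICF, and Rps27rt, at no more than 0.522 CPM in any sample, were low and did not pass (adjusted p = 0.613 and 0.479).

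Ratios of counts within a sample do not depend on scaling between samples. In 8 pairs with counts in every sample, the ratio of paralog to canonical gene was compared by exact permutation of the samples (two-sided), which with 3 against 3 can give no p below 0.1. The Rpl10l count equalled 3.55% of the Rpl10 count in the control and 5.98% with ICF, a log2 difference of 0.75 ± 0.10 (SE). The Rps27l count equalled 41.7% of the Rps27 count in the control and 57.7% with ICF, a log2 difference of 0.47 ± 0.15 (SE). Since 91.9% of the stretches of Rpl10 and 98.5% of those of Rps27 occur elsewhere, these canonical genes lose reads and the percentages are not ratios of mRNA. For both, every ICF sample was above every control sample (exact permutation p = 0.1, adjusted p = 0.2 over 8 pairs). The Rpl39l to Rpl39 ratio was lower by 0.26 ± 0.31, the Rpl36al to Rpl36a ratio higher by 0.05 ± 0.04 and the Rpl3l to Rpl3 ratio higher by 0.09 ± 0.30 on the log2 scale, all with overlapping groups. The Rpl39l difference was -0.16, -0.34 and -0.27 in pairs 1 to 3 and ranged from -0.47 without ICF replicate 3 to -0.035 without control replicate 3.

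**Figure D4:**
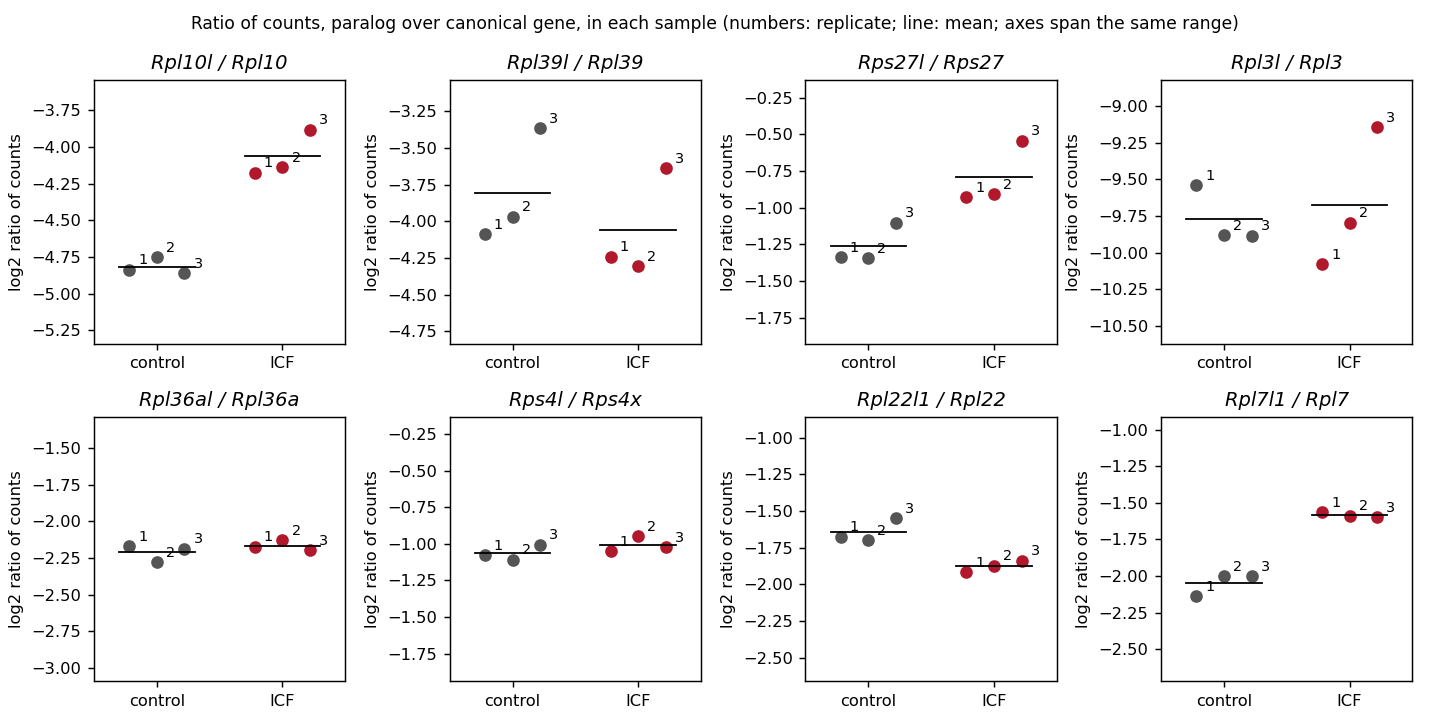
Each panel gives the log2 ratio of counts (vertical axis), paralog over canonical gene, in the 3 control and 3 ICF samples, with the mean as a line. Rpl10l, Rps27l and Rpl7l1 are higher against their partner in all ICF samples, Rpl22l1 is lower, and the other 4 panels overlap.

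Relatives outside the symbol rule included both directions. Rpl22l1, a paralog of Rpl22, had 202, 197 and 193 CPM in the control and 143, 148 and 148 CPM with ICF, and it fell by 0.43 ± 0.03 on the log2 scale (SE, adjusted p = 0.00297), where Rpl22 itself had -0.20 ± 0.06 (adjusted p = 0.1). The Rpl22l1 to Rpl22 ratio was lower in every ICF sample (log2 difference -0.24 ± 0.05, exact permutation p = 0.1). Rpl7l1, a relative of Rpl7 that acts in ribosome assembly, had 263, 274 and 247 CPM in the control and 332, 333 and 307 CPM with ICF, and it rose by 0.31 ± 0.06 (SE, adjusted p = 0.0236), whereas Rpl7 had -0.16 ± 0.07 (adjusted p = 0.213). The Rpl7l1 to Rpl7 ratio was higher in every ICF sample (0.46 ± 0.05, exact permutation p = 0.1). Fau, which encodes Rps30, and Rack1, a scaffold on the small subunit, had -0.38 ± 0.14 (adjusted p = 0.0614) and -0.29 ± 0.15 (adjusted p = 0.138), and Rps3a1 had -0.14 ± 0.04 (adjusted p = 0.185). With the replicate block Fau, Rack1 and Rps3a1 fell (adjusted p = 1.27e-06, 1.79e-05 and 0.0303), and so did Rpl22 and Rpl7 (adjusted p = 0.00251 and 0.0138). The pseudogene Rps4l was at 47.8% of the Rps4x count in the control and 49.7% with ICF.

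Other genes of translation set the members in context. Among 21 TOP mRNAs other than the members, a list that includes Rack1 and Fau, 3 fell, where 4.38% of all genes fell, and the median log2 fold change was -0.12. Under the block 9 of the 21 fell and 2 rose, where 15.3% of all genes fell and 14.6% rose. Eef1a1, which delivers aminoacyl-tRNA, had 6030, 5709 and 5572 CPM in the control and 4150, 4177 and 3692 CPM with ICF, and fell by 0.53 ± 0.07 (SE, adjusted p = 0.00332). Eef2, the translocation factor, fell by 0.41 ± 0.09 (adjusted p = 0.0191), and Eif4b, a helicase cofactor, fell by 0.22 ± 0.04 (adjusted p = 0.0482). Among 42 initiation and elongation factors, which include these 3, 3 fell and 1 rose, Eif1 (0.21 ± 0.03, adjusted p = 0.0487), with a median of -0.03. Of the 42, 12 fell and 5 rose in the paired fit. Eif1 passed in 0 of the 6 fits with 1 sample left out (largest adjusted p = 0.197).

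Mitochondrial ribosomal protein genes, which serve the separate ribosome of the mitochondrion, had a median of 0.05 over 77 tested, and 4 of them rose (Mrps6, Mrpl49, Mrps2 and Mrpl20, by 0.26 to 0.30), where 3.47% of all genes rose. With the replicate block 18 of the 77 rose and 8 fell, against 14.6% and 15.3% of all genes. Among 13 chaperones of ribosomal proteins and 5S RNP factors, 2 rose, Mdm2, the p53 ligase that Rpl5 and Rpl11 bind (0.78 ± 0.24, adjusted p = 0.0297), and Tsr2, the chaperone of Rps26 (0.36 ± 0.05, adjusted p = 0.0216). Among 18 genes of mTORC1 and LARP1 control, Ddit4 fell by 0.94 ± 0.21 (adjusted p = 0.00966) and Deptor by 0.29 ± 0.05 (adjusted p = 0.0324), where 4.38% of all genes fell. Sesn2 rose by 0.55 ± 0.05 (adjusted p = 0.00182), and the median of the 18 was 0.02. With the replicate block 2 of the 18 rose and 4 fell. Of the 13 chaperones and 5S RNP factors, 4 rose and 1 fell in that fit.

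**Figure D5:**
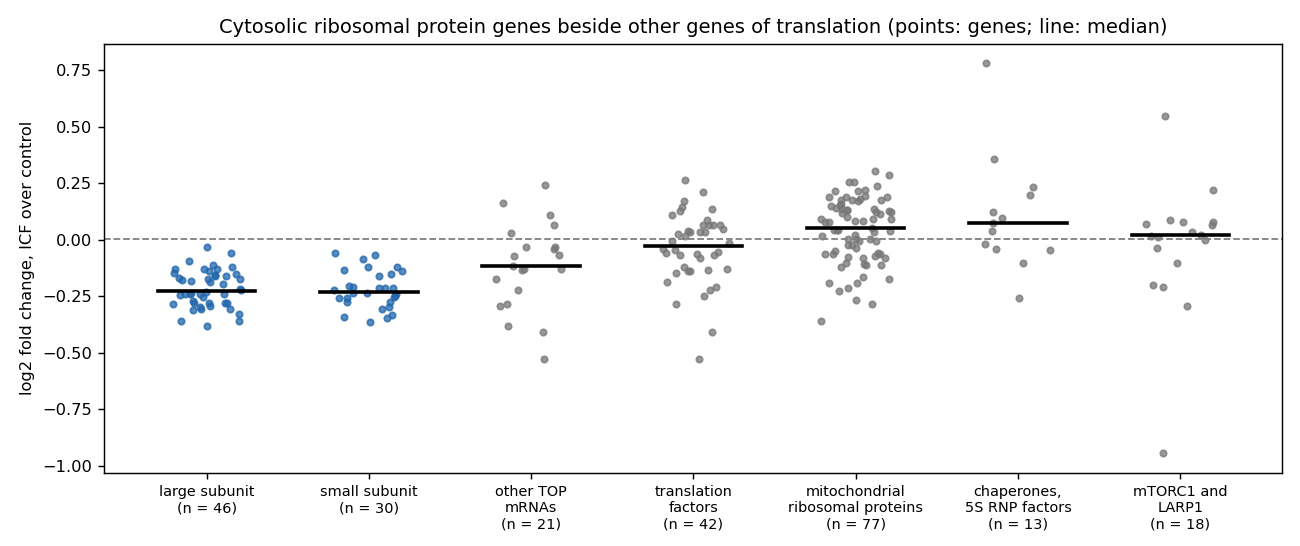
Log2 fold change (vertical axis, ICF over control) of single genes in 7 lists, with the list median as a bar and the median of all genes tested as a dashed line. Both subunits lie wholly below 0 in this fit (73 of 76 genes under every scaling and filter) with medians of -0.23, while mitochondrial ribosomal protein genes centre on 0.05 and translation factors on -0.03.

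Marker lists of cell types that embryoid bodies can hold are given beside these results, and their part in them was not tested. Of 10 pluripotency markers 1 fell, Tdgf1, with a summed level of 4143 to 4819 CPM in the control and 3874 to 4256 CPM with ICF. Of 10 mesenchymal markers tested 2 rose, Col1a1 and Col3a1, with a summed level of 377 to 438 CPM in the control and 453 to 467 CPM with ICF. Of 5 striated muscle markers tested Tnnt2 rose, from 2.77, 2.11 and 1.50 CPM to 7.17, 5.75 and 6.49 CPM, and 3 of the 5 had negative values. The other 8 listed summed to 6.58 to 8.77 CPM in the control and 6.02 to 8.42 CPM with ICF. Of 6 markers of the retinoic acid response tested 2 fell, Cyp26a1 and Stra8, and the summed level was 54.7 to 59.0 CPM in the control and 40.7 to 42.3 CPM with ICF. Of 6 neural markers tested 0 rose and 0 fell, and the summed level was 122 to 131 CPM in the control and 119 to 128 CPM with ICF. These counts are from edgeR's test without the block, where 3.47% of all genes rose and 4.38% fell. With the replicate block 14.6% of all genes rose and 15.3% fell. Under it 3 neural, 4 mesenchymal, 1 pluripotency, 1 muscle and 1 retinoic acid marker rose. In the same fit 4 pluripotency, 2 retinoic acid and 1 neural marker fell.

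Genes whose pattern was most like that of Rps27l over the 6 samples were Zmat2, Zfp493, Hadhb, Map3k12 and Sbds, with Pearson r of log2 CPM between 0.997 and 0.999, as a description of 6 samples and 16729 genes. Sbds acts in the release of Eif6 from the large subunit. It had a mean of 76.4 CPM in the control and 89.5 CPM with ICF (adjusted p = 0.0599).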

How the data were processed

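The authors sequenced strand-specific libraries as single 75-base reads, trimmed these (Trimmomatic), aligned them (HISAT2), assigned them to genes (HTSeq) and deposited whole-number counts for each gene and sample. Versions of these tools are not given in the sources used here, and the submitters' processing notes name both hg38 and GRCm38. HTSeq sets aside reads with several alignments or several genes. Rows that name no gene were left out, among them 29.5% to 31.3% of all records as not uniquely aligned and 4.09% to 6.24% without a feature.

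Of 50686 identifiers, 50462 were placed by GENCODE M21 (GRCm38), which gave symbols and coordinates. All genes were fitted with edgeR 4.0.16 (TMM, filterByExpr, quasi-likelihood test, R 4.3.3), and a Benjamini-Hochberg adjusted p under 0.05 was called. CPM are TMM-normalized, and standard errors come from log2 CPM over 3 samples per group. P-values measure the spread between these samples. Ratios were compared by exact permutation (scipy 1.17.1). The edgeR test without the block was tried on simulated counts with known changes, a single dispersion and no replicate effect. The block, the offsets and the permutations were not tried in this way.

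Same-numbered samples deviated together from their group means (r = 0.15, 0.20 and 0.38), and the donor numbers of the labels were taken to pair the samples. Neither the labels nor the paper states this pairing. Control replicate 1 and ICF replicate 2 had r = 0.26, and control replicate 2 and ICF replicate 1 had r = 0.17. These values thus do not tell pairs 1 and 2 apart. Replicate 3 had negative r with samples of other numbers, but deviations from a group mean sum to 0 within the group. The negative values thus follow in part from the positive r of replicate 3 and are no separate evidence for its pairing. The p-values of the block depend on the choice to pair the samples, which was made from the same data.

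The genes named were the paralogs and their canonical genes, the members past the threshold, the 4 largest and 4 smallest differences among canonical genes with at least 100 counts, the 3 highest and 3 lowest per length, members fixed for their roles and up to 4 called genes per list. Some genes that this rule names are not reported here. Members and lists were chosen with earlier results of these data known. Alternatives were DESeq2 1.42.0, RLE size factors, TMM without the members, library totals, looser (1 count in any sample) and stricter (10 counts in every sample) filters, the replicate block, GC content and length offsets, ICF replicate 3 counts divided by 4, and samples left out. The replicate block without replicate 3 was added after seeing the data.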

Additional observations from a re-analysis of the deposited data

How the results depend on the processing

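The median log2 fold change of the 82 members stayed negative under all 19 alternatives, between -0.18 with offsets for GC content and transcript length and -0.24 without replicate 3 of both groups, or between -0.29 and -0.16 with 1 sample left out. The share of reads on the members, lower by 0.18 on the log2 scale, kept its direction without any 1 sample (0.13 to 0.24 lower).

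The number of members that fell depended on the fit far more than the direction did. It was 6 as reported, where 733 of 16729 genes tested fell, and 20 with DESeq2, where 1071 of 29738 fell. With the looser filter it was 26 (1019 of 29738 genes) and with the GC content and length offsets 16 (1233 of 16729). With 1 sample left out it was 0 to 33, where 1.26% to 5.45% of all genes fell. In these fits the number of members that rose was 1 to 2. Of all genes tested, between 85 of 17015 (without control replicate 2) and 724 of 17034 (without control replicate 3) rose. With the pairing of replicates as a block it was 65 in edgeR (2561 of 16729 genes tested) and 66 in DESeq2 (1666 of 29738). Under the same block it was 59 with the offsets added (2797 of 16729) and 63 without replicate 3 (2359 of 16893). Leaving out replicate 3 of both groups without the block gave 68 (2627 of 16893). The cause of these differences was not tested.

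The large to small subunit ratio, higher by 0.0033, was within -0.0029 to 0.0070 with 1 sample left out, 0.0033 within pairs and 0.028 over members with few shared stretches. The Rpl3l to Rpl3 ratio changed sign without ICF replicate 3 (range with 1 sample left out -0.17 to 0.30) and without replicate 3 of both groups (-0.23). Within pairs, exact sign flips of 3 differences can give no p below 0.25, and unpaired permutations none below 0.1, so the design cannot show whether pairing changes a call of a ratio.

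No difference that passed was among the single genes whose sign changed. With the offsets, and with the offsets and the block, Rpl19 was at 0.044 and 0.043, Rps9 at 0.013 and 0.015 and Rps4l at 0.021 and 0.021. With 1 sample left out Rpl23 ranged from -0.13 to 0.0045 and Rps9 from -0.14 to 0.037, with values of 0.037 without control replicate 1 and 0.018 without ICF replicate 3. Rpl24, at -0.42 to 0.066 with samples left out, was at 0.066 without replicate 3 of both groups and at 0.054 with the block added. Rps14 lost its call with the offsets (-0.22, adjusted p = 0.0775), and the other losses of a call, 36 in all, came from leaving out 1 sample. The depth of about 20 to 33 counts per sample for Rpl24 and fewer for Rps27rt could not show differences of the size seen in other members.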
